A study of Mus musculus with 19 samples.

Results

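The genes described here were 37 parts of the autophagy machinery, taken from a table of 20408 genes by their symbols. They comprised 5 genes of the ULK initiation complex, 6 of the class III phosphatidylinositol 3-kinase complexes, 5 of membrane supply and phosphatidylinositol 3-phosphate (PI3P) reading, 7 of the conjugation systems, 3 Atg4 proteases, 5 Atg8-family genes, 3 cargo receptors, 2 mitophagy receptors and the transcription factor Tfeb. Each of the 37 was found once, and all 37 passed the filter on low values, so none was left out of any comparison. The rule went by symbol and not by level, but the genes were chosen with earlier results of these data known.

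The RNA came from the suprarenal aorta of 19 male mice on a C57BL/6J background, all lacking apolipoprotein E (ApoE-/-). Their age is given as 8 weeks. All carried SMA-CreERT2, a tamoxifen-inducible Cre driven by the promoter of Acta2, the smooth muscle actin gene. Per the methods, mice of both genotypes were injected with tamoxifen for 5 days from 8 weeks of age. A rest followed before saline or Ang II, so the aortas were taken at a later age. In IKKβ-/- mice both alleles of Ikbkb, which encodes the NF-κB-activating kinase IKKβ, were floxed (SMA-CreERT2 Ikkb Flox/Flox ApoE-/-), whereas IKKβ+/+ littermates had the Cre without the floxed alleles. Mice received saline or angiotensin II (Ang II) from subcutaneous osmotic pumps for 24 h, at a dose the labels give as 500 to 1000 ng/min/kg and the methods as 1000 ng/min/kg. There were 5 IKKβ+/+ saline, 5 IKKβ+/+ Ang II, 4 IKKβ-/- saline and 5 IKKβ-/- Ang II mice. The Cre is driven only in Acta2-expressing cells, while the RNA is of the whole wall. With saline the normalized count of Ikbkb was 594 to 791 in IKKβ+/+ mice and 439 to 585.5 in IKKβ-/- mice. With Ang II it was 684.5 to 779.3 and 430.2 to 672. The genotypes did not overlap within either treatment, though they did across treatments. Which cells the Ikbkb reads came from was not tested.

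Autophagy encloses cytoplasm in a double membrane and delivers it to the lysosome. The ULK complex, which mTORC1 restrains when nutrients are plentiful, starts the process, a lipid kinase complex built around Becn1 marks the membrane with PI3P, and conjugation enzymes attach Atg8 proteins (the LC3 and GABARAP families) to it, where cargo receptors such as Sqstm1 (p62) bind. Much of this control acts on proteins by phosphorylation and lipidation, which mRNA counts do not measure. In smooth muscle cells autophagy is known to help maintain the contractile state.

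Expression was given as normalized counts: reads per gene divided by a size factor for each mouse. The libraries held 11382573 to 19906694 reads on genes. The share of reads from mitochondrial genes was 5.99% to 9.07% in IKKβ+/+ saline, 10.1% to 14.1% in IKKβ+/+ Ang II, 8.89% to 38.7% in IKKβ-/- saline and 7.88% to 37.2% in IKKβ-/- Ang II mice, the highest in mice X2406 (IKKβ-/- saline) and X2385 (IKKβ-/- Ang II). The smooth muscle genes Acta2, Myh11 and Tagln were abundant in every mouse, with Acta2 between 113336 and 301107 normalized counts. In a whole vessel, fewer cells of a type and less RNA per cell cannot be told apart. The mouse numbers of each group formed a range of their own, and neither the labels nor the methods give batches: an effect of batch cannot be told apart from one of group.

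To compare levels between genes, the mean normalized count over the 19 mice was divided by the summed length of each gene's exons, in kilobases (kb). Of the Atg8 family, 3 genes led the list together with Sqstm1. Gabarap had 2137 normalized counts per kb, Gabarapl1 1232, Sqstm1 1218 and Map1lc3a (LC3A) 923, and Bnip3l came next at 371. Map1lc3b (LC3B), the family member most used as a marker of autophagosomes, had 187 counts per kb and Gabarapl2 had 129. Before division by length, Map1lc3b had the higher mean count, 1403 against 1090 for Map1lc3a. Their exons sum to 7.517 and 1.181 kb. These lengths take in every annotated exon, whether or not it is expressed in the aorta, so the order per kb depends on the annotation. Genes of initiation, the lipid kinase, membrane supply and conjugation overlapped these last values, and ran from Atg3, the enzyme that transfers Atg8 proteins to lipid, at 284 counts per kb to Atg2b, a lipid transfer protein, at 33.6. The protease Atg4d was lowest of the 37, at 32.5 counts per kb. The spread between mice of a group was narrowest for Becn1, with a pooled coefficient of variation of 6.66%, and widest for the mitophagy receptors Bnip3 at 39.97% and Bnip3l at 22.6%.

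**Figure D1:**
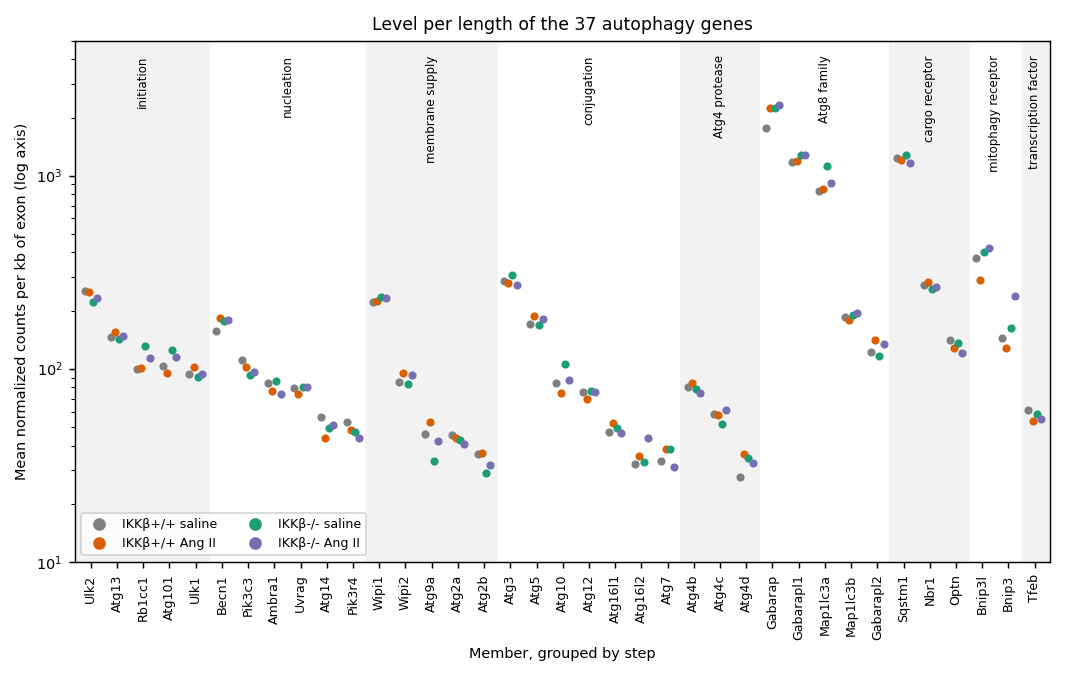
Mean normalized counts per kb of exon (log axis) for each of the 37 genes, grouped by step of autophagy, with 1 point per group of mice (4 or 5 mice each). Gabarap, Gabarapl1, Sqstm1 and Map1lc3a lie highest and the 4 group means of most genes lie close together.

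TFEB, itself one of the 37, binds E-box sequences with the core CACGTG in promoters of autophagy and lysosome genes, and NF-κB, the factor released by IKKβ, binds κB sites. RefSeq promoters (GRCm38.p6, 300 bases around the transcription start) were matched for 30 of the 37 genes, giving 34 promoters. CACGTG, which reads the same on both strands, was in 5 of the 34 (14.7%, beside 7.15% of 32851 promoters), those of Atg14, Atg3, Atg5, Atg7 and Bnip3. Its longer form TCACGTG, searched on both strands and contained in those matches, was in 3 (8.82%, beside 3.77%). The κB consensus, on both strands, was in 3 (8.82%, beside 8.46%), those of Atg101, Atg16l2 and Sqstm1. The windows of genes whose values are given below are shown with the motif in capitals, 5′ to 3′ on the strand of the gene. The Atg5 window is chr10:44268315-44268340 (+), that of Bnip3 chr7:138909599-138909624 (-), that of Atg14 chr14:47568420-47568445 (-) and that of Sqstm1 chr11:50210819-50210848 (-), where the capitals mark the κB match.
Atg5: gagcgcttgcCACGTGgtcttggtga
Bnip3: gcacgcgccgCACGTGccacacgctc
Atg14: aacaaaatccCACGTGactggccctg
Sqstm1: cccacgaggcGGGGCTCCCCcgttttctat
These are matches of letters, and binding was not measured.

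Differences between groups were tested with limma on log2(normalized count + 1) over 14845 genes, and a gene was called when its Benjamini-Hochberg adjusted p was below 0.1 and its fold change above 1.2. Fold changes below are on that log2 scale, with the standard error (SE).

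The first question was whether 24 h of Ang II altered expression of the machinery in IKKβ+/+ aortas. Of the 37 genes, 1 rose (Gabarap), none fell and 36 did not pass the test; 8.66% of all genes tested were called in this comparison, 4.33% higher and 4.33% lower. The count was 0 without X2350, 2 without X2372 (with Atg14) and 3 without X2356 (with Atg4d and Bnip3l). Over all genes the calls went from 1286 to 431, 933 and 1918 in these fits. The median log2 fold change of the 37 was 0.00, as was the median over all genes, at 0.01. The median absolute change was 0.13 for the 37 and 0.21 over all genes, and 33 of the 37 had a 95% interval that lay within a fold of 1.5 either way, beside 45.6% of all genes. By step, the medians ran from -0.31 for the 2 mitophagy receptors and -0.13 for the 6 lipid kinase genes to 0.14 for the 7 conjugation genes.

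Gabarap encodes the Atg8 protein that gives the GABARAP subfamily its name and binds the ULK complex and cargo receptors. Its normalized counts were 3065, 3230.3, 3254, 3325 and 3399.9 in IKKβ+/+ saline mice and 3849, 3907, 4049.5, 4079.7 and 4894 in IKKβ+/+ Ang II mice. The groups did not overlap, and mouse X2350 was highest. The log2 fold change was 0.35 ± 0.09 (SE), a fold of 1.27, with an adjusted p of 0.0320 by limma. Without X2350 it was 0.29 and the adjusted p was 0.106, so the call was lost; Gabarap remained called when any other of the 19 mice was left out. In the IKKβ-/- mice the counts were 3801, 3909, 4143 and 4679 with saline and 3863, 4005, 4257, 4502 and 4674 with Ang II. So the 5 IKKβ+/+ saline mice lay below all 14 other mice, and within IKKβ-/- mice the groups overlapped, with a log2 fold change of 0.04 ± 0.09.

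**Figure D2:**
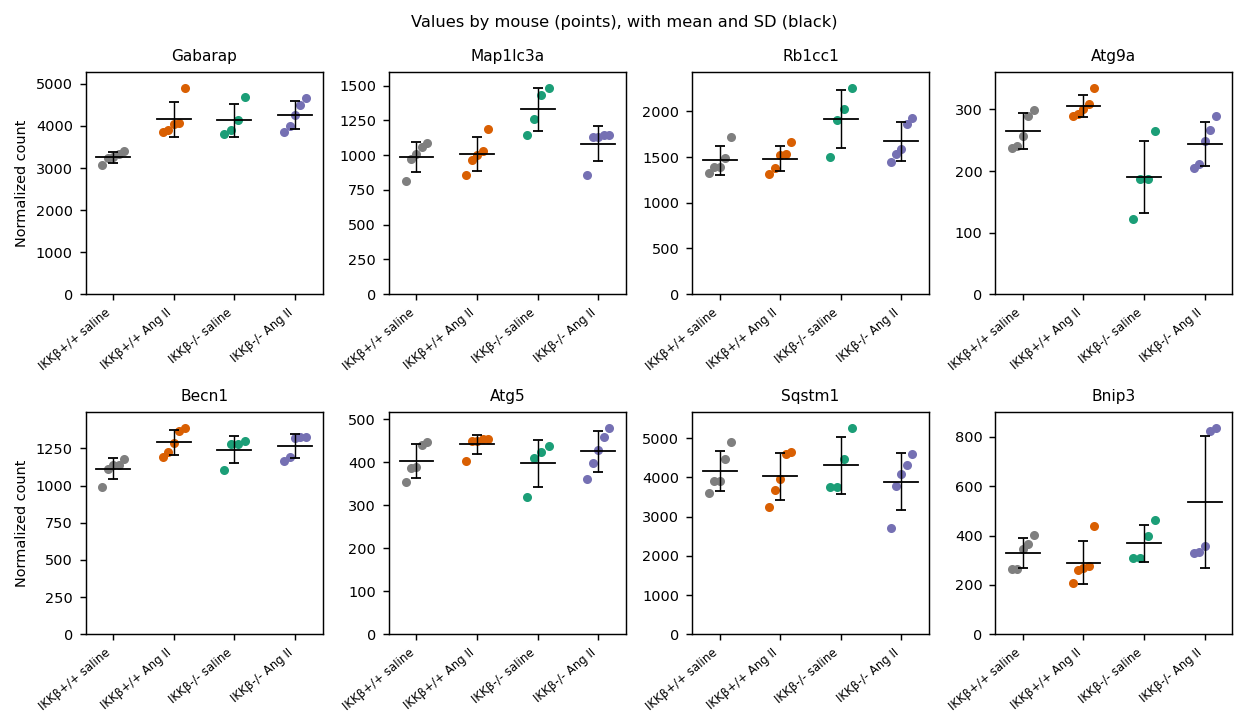
Normalized counts of 8 genes in each of the 19 mice (points), with the group mean and SD in black; each axis starts at 0. Gabarap in the 5 IKKβ+/+ saline mice lies below every other mouse, and Bnip3 is high in 2 of 5 IKKβ-/- Ang II mice.

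Groups did not overlap for 3 of the 37 in this comparison (8.11%, beside 8.42% of all genes): Gabarap, Becn1 and Atg14. Becn1, the scaffold of the lipid kinase complexes, had 991, 1114, 1141, 1142 and 1177 normalized counts with saline and 1194, 1227, 1286, 1370.1 and 1385 with Ang II. Every Ang II mouse was above every saline mouse, but the log2 difference of 0.22 ± 0.08 did not pass the test (adjusted p = 0.123 by limma; exact permutation test of this gene alone, p = 0.00794, the smallest that 5 against 5 mice can give). Atg14, which directs the Becn1 complex to autophagosome formation, was not among the genes set to be listed by mouse and is given for its separation, seen in its values. It had 199, 228, 234, 272 and 279 counts with saline and 184, 189, 191, 193 and 194 with Ang II, a log2 difference of -0.34 ± 0.13 (adjusted p = 0.126). The 5 Ang II mice lay close together, just below the lowest saline mouse. Atg14 was called as lower by edgeR, by DESeq2, with array quality weights and with only the 2 groups in the fit, and Atg4d, an Atg4 protease, was called as higher by DESeq2 and with array quality weights (0.39 ± 0.15 and adjusted p = 0.145 by limma).

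Among the cargo and mitophagy receptors, Sqstm1 had 3606, 3910.2, 3922, 4478 and 4905 counts with saline and 3244, 3676, 3974, 4595 and 4657 with Ang II, which overlapped widely. The log2 difference was -0.05 ± 0.14. Bnip3l (NIX), a receptor for mitochondria on the outer membrane, was lower with Ang II in mean (1450.1 ± 233 against 1117 ± 333, SD, n = 5 each), but overlapped and did not pass (adjusted p = 0.232).

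In IKKβ-/- mice, none of the 37 genes passed the test for Ang II by limma, where 5.29% of all genes were called; 3 of the 37 had an unadjusted p below 0.05, beside 17.8% of all genes, and the edgeR quasi-likelihood test and DESeq2 likewise called 0. Over all genes edgeR called 722 and DESeq2 1164. With 1 mouse left out, limma called 1 gene without X2383 (Ambra1), X2403 (Atg16l2) or X2409 (Atg9a). In these fits limma called 1082, 580 and 984 of all genes, beside 785 in the main fit. The median log2 change of the 37 was 0.00, and 33 of 37 intervals lay within a fold of 1.5, beside 44.8% of all genes. The 3 genes with an unadjusted p below 0.05 by limma were Map1lc3a, Atg9a and Atg16l2. Map1lc3a had 1147, 1261, 1433 and 1479.5 counts with saline and 856, 1129, 1129, 1142 and 1146 with Ang II. All Ang II mice were below all saline mice, though the nearest of them met at 1146 and 1147, and the log2 difference of -0.30 ± 0.12 did not pass (adjusted p = 0.189). It was the only 1 of the 37 whose groups did not overlap (5.29% of all genes). Atg9a, the membrane protein that seeds the growing autophagosome, differed by 0.40 ± 0.17, and Atg16l2, a relative of the conjugation factor Atg16l1, by 0.42 ± 0.17, both with overlapping groups.

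Whether the Ang II effect itself differed between genotypes was tested as the difference of the log2 changes. None of the 37 passed, and neither did any of the 14845 genes (0%) by limma. Of the 37, 4 had an unadjusted p below 0.05 by limma, beside 11.1% of all genes. Both edgeR and DESeq2 called 0 of the 37, where they called 3 and 279 of all genes. For Gabarap the difference was -0.30 ± 0.13 (adjusted p = 0.397), the smallest adjusted p of the 37. For Map1lc3a it was -0.33 ± 0.16 (adjusted p = 0.458). For Becn1 it was -0.19 ± 0.12 (adjusted p = 0.544). A change called in one genotype and not in the other was therefore not shown to differ between them.

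The comparison of genotypes under saline asked how loss of IKKβ in smooth muscle altered the machinery before Ang II. Of the 37 genes, 3 rose in IKKβ-/- mice (Gabarap, Map1lc3a and Rb1cc1), 1 fell (Atg9a) and 33 did not pass; 5.47% of all genes were called, 3.4% higher and 2.07% lower. The median log2 difference of the 37 was 0.01, beside -0.02 over all genes. These 4 calls were close to the threshold: 0 of the 37 were called at an adjusted p below 0.05, and 0 without X2406 and X2385, the libraries of highest mitochondrial share. Over all genes the 812 calls fell likewise, to 136 and to 19. The count was also 0 when any 1 of the mice X2370, X2373, X2376 (IKKβ+/+ saline), X2401, X2403 or X2406 (IKKβ-/- saline) was left out, 1 without X2372, and 2 without any 1 of X2352, X2356, X2358, X2359 or X2378. In these fits the calls over all genes were 24 to 365, 425 and 547 to 752, in that order.

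Gabarap was higher in IKKβ-/- saline than in IKKβ+/+ saline mice with no overlap (values above), by 0.34 ± 0.09 on the log2 scale (adjusted p = 0.0661). This comparison and that of Ang II in IKKβ+/+ mice share the same 5 saline mice. Map1lc3a had 812, 972, 1008, 1059 and 1090.1 counts in IKKβ+/+ saline mice, all below the 1147 to 1479.5 of the IKKβ-/- saline mice, a log2 difference of 0.43 ± 0.12 (adjusted p = 0.0680). With Ang II the IKKβ+/+ mice had 854, 968, 999.9, 1031 and 1189 counts, which overlapped those of the IKKβ-/- mice.

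Rb1cc1 encodes FIP200, the scaffold of the ULK complex. It had 1325, 1386, 1389, 1487 and 1723 counts in IKKβ+/+ saline mice and 1497, 1906, 2025 and 2250.2 in IKKβ-/- saline mice. Of the 4 IKKβ-/- mice, 3 were above all IKKβ+/+ mice and X2409, at 1497, lay within their range. The log2 difference was 0.38 ± 0.12 (adjusted p = 0.0961). A gene annotated on the opposite strand overlaps Rb1cc1; the libraries were stranded.

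Atg9a had 238, 241, 257, 290.2 and 299.6 counts in IKKβ+/+ saline mice and 122, 187, 187 and 266 in IKKβ-/- saline mice. Of the 4 IKKβ-/- mice, 3 lay below all IKKβ+/+ mice, with X2403 lowest and X2409, at 266, within their range. The log2 difference was -0.52 ± 0.17 (adjusted p = 0.0987). Under Ang II the counts were 289.6, 292, 301, 309 and 334 in IKKβ+/+ and 205, 212, 249, 266 and 289 in IKKβ-/- mice, which met without overlapping, at a log2 difference of -0.33 ± 0.16 that did not pass (adjusted p = 0.348). The annotation places another gene model (Gm29253) on the same strand over Atg9a, so the division of reads between them is uncertain.

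Atg10, the enzyme that conjugates Atg12 to Atg5, also separated the saline groups, as seen in its values. It had 136, 139, 145, 149 and 151 counts in IKKβ+/+ and 171, 180.2, 186 and 189 in IKKβ-/- saline mice. Its log2 difference of 0.33 ± 0.14 did not pass (adjusted p = 0.201). With Gabarap and Map1lc3a it made 3 of 37 genes without overlap (8.11%, beside 8.76% of all genes).

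Averaged over both treatments, IKKβ-/- mice differed from IKKβ+/+ mice in 3 of the 37 genes, 2 of them higher and 1 lower, where 7.24% of all genes were called, 3.79% higher and 3.45% lower. Rb1cc1 rose by 0.28 ± 0.08 (adjusted p = 0.0707) and Map1lc3a by 0.26 ± 0.08 (adjusted p = 0.0767), the latter at a fold of 1.2003 that only just passed the cut-off. Atg9a fell by 0.42 on the log2 scale, with an SE of 0.11 (adjusted p = 0.0520). Atg9a was the steadier of these, since it lost its call only without X2373 among the 19 mice; without X2406 and X2385 none of the 3 was called. The count was 1 without any 1 of X2358, X2370, X2373, X2385, X2401, X2403 or X2406 and 5 without X2356 or X2409. Over all genes the calls were 1075 in the main fit, 355 to 815 in the former fits, and 1264 and 1898 in the latter. Averaged over both genotypes, 0 of the 37 passed for Ang II by limma, where 12.7% of all genes were called, and 8 of the 37 had an unadjusted p below 0.05, beside 24.7% of all genes. Gabarap had the smallest adjusted p of the 37 there (0.0612 by limma), which is below 0.1, but its fold did not exceed 1.2. Neither edgeR nor DESeq2 called any of the 37 there, and limma called 1 without X2359 (Atg10), without X2380, X2385 or X2409 (Atg9a) and without X2386 or X2403 (Atg16l2). Of all genes edgeR called 1950 and DESeq2 2293, and those limma fits called 1744 to 1971, beside 1887 in the main fit. In that average all 37 intervals lay within a fold of 1.5, beside 60.2% of all genes.

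**Figure D3:**
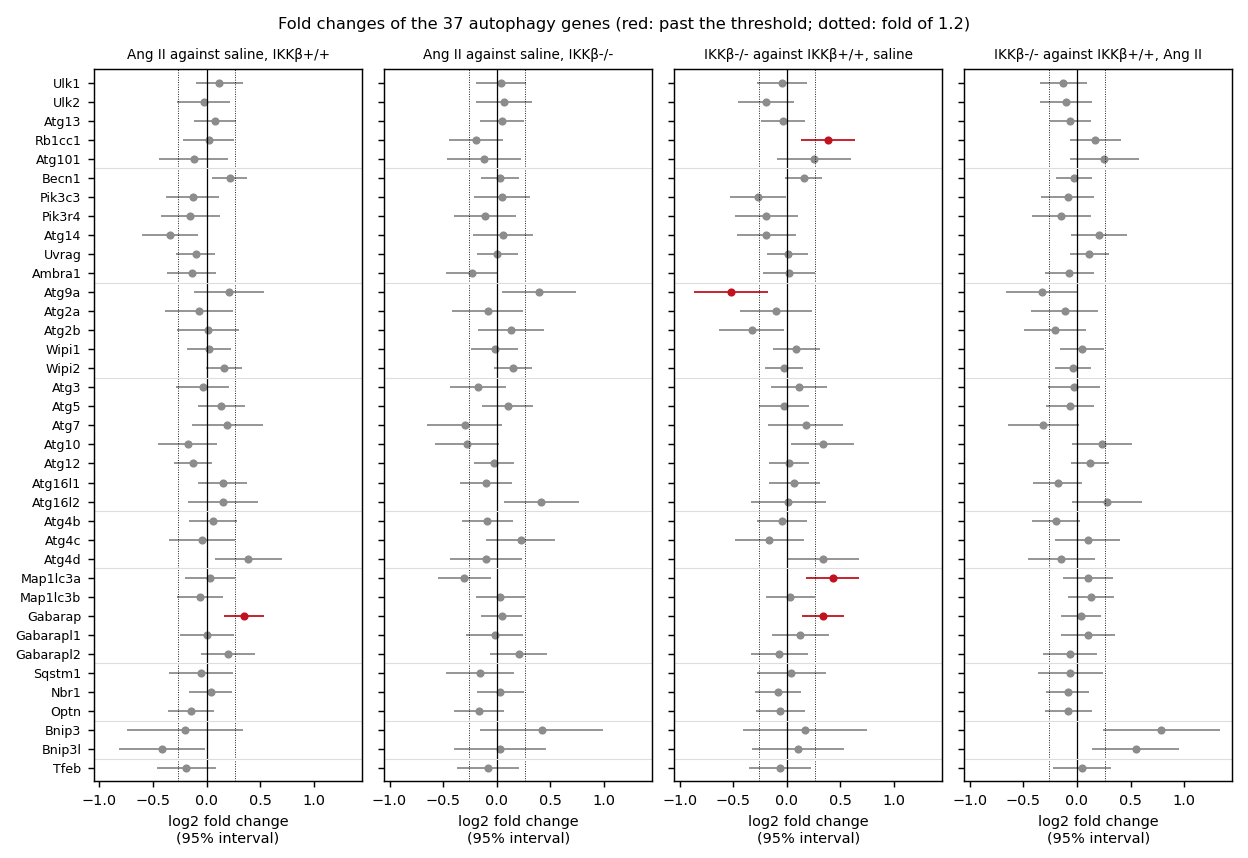
Log2 fold change with its 95% interval for the 37 genes in the 4 pairwise comparisons, ordered by step; genes past the threshold are red and dotted lines mark a fold of 1.2. There is 1 red gene in the comparison of Ang II with saline in IKKβ+/+ mice, 4 in that of genotypes under saline and none in the other two.

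Under Ang II, the comparison of genotypes called 0 of the 37 by limma and by edgeR, and 0.128% of all genes by limma; 3 of the 37 had an unadjusted p below 0.05, beside 14.3% of all genes. Atg9a and Atg14 were the 2 genes whose groups did not overlap (5.41%, beside 1.54% of all genes); Atg14 had 194, 197, 204, 253 and 256 counts in IKKβ-/- Ang II mice, a log2 difference of 0.20 ± 0.13 (adjusted p = 0.467). The mitophagy receptors had the largest estimates. Bnip3 had 209, 261, 267, 275 and 439.9 counts in IKKβ+/+ Ang II mice and 330.2, 335, 359, 824 and 835 in IKKβ-/- Ang II mice.

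The 2 IKKβ-/- Ang II mice with high Bnip3, X2384 and X2385, stood apart from the other three, and the groups overlapped because X2356 in the IKKβ+/+ group reached 439.9. The log2 difference was 0.79 ± 0.26 (adjusted p = 0.212 by limma; exact permutation p = 0.0714). DESeq2 called Bnip3 (0.88, adjusted p = 0.0584), and limma did so without X2356 (0.95, adjusted p = 0.0823), when Bnip3l was called as well. Of all genes these fits called 521 and 553, beside 19 in the main fit. The 2 mice with high Bnip3 also had the highest summed white adipocyte markers of all 19 mice, 41951 and 41972 normalized counts against 1031 to 14907 in the others, and mitochondrial shares of 26.5% and 37.2%; the part of these in the Bnip3 values was not tested. With saline, Bnip3 had 264, 265, 346, 365 and 401 counts in IKKβ+/+ and 308, 309.9, 398 and 463 in IKKβ-/- mice. Of 12 other hypoxia-inducible genes tested, a set to which Bnip3 belongs by its known regulation, none passed by limma in the 4 pairwise comparisons, where 7 of the results had an unadjusted p below 0.05, edgeR called 1 and DESeq2 called 3. Averaged over genotypes, P4ha1 (0.52 ± 0.15) and Egln3 (0.85 ± 0.28) of that set rose with Ang II.

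The genes commonly read as markers of the pathway showed small differences. Atg5, part of the enzyme complex that lipidates Atg8 proteins, was also measured by qPCR in the study. Here it had 353, 387, 388, 439 and 446 counts in IKKβ+/+ saline, 403, 449, 450.0, 453 and 455 in IKKβ+/+ Ang II, 318, 410.0, 423 and 437 in IKKβ-/- saline and 360.3, 398, 429, 459 and 479 in IKKβ-/- Ang II mice. The 4 groups overlapped. The log2 difference for Ang II was 0.14 (95% interval -0.08 to 0.36) in IKKβ+/+ and 0.10 (-0.13 to 0.34) in IKKβ-/- mice, and neither passed. With Ang II the mean counts were 442 in IKKβ+/+ and 425 in IKKβ-/- mice, a difference that did not pass either.

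Ulk1, the kinase of the initiation complex, had 522, 593, 609.7, 635 and 693 counts in IKKβ+/+ saline and 586, 602, 661, 707 and 762 in IKKβ+/+ Ang II mice. In IKKβ-/- mice it had 544, 560.3, 612 and 643 counts with saline and 510.3, 565, 617, 660.4 and 690.2 with Ang II. No pair of groups separated, and the 4 pairwise log2 differences ran from -0.13 to 0.12. Becn1 in IKKβ-/- mice had 1106, 1278, 1281 and 1301 counts with saline and 1165, 1193, 1323, 1324 and 1329.5 with Ang II, which overlapped (log2 difference 0.03 ± 0.08).

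Map1lc3b had 1255, 1359, 1411, 1412 and 1513 counts in IKKβ+/+ saline and 1184, 1204, 1279.8, 1386 and 1639 in IKKβ+/+ Ang II mice. It had 1325, 1419.6, 1455 and 1489 counts in IKKβ-/- saline and 1168, 1423, 1479, 1568 and 1692 in IKKβ-/- Ang II mice. All its pairwise differences were between -0.06 and 0.13 on the log2 scale. Sqstm1 in IKKβ-/- mice had 3745, 3750.4, 4479.6 and 5254 counts with saline and 2700.4, 3774, 4077, 4316 and 4589.9 with Ang II, and none of its pairwise differences passed.

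Tfeb, a master regulator of lysosomal and autophagy genes, had 287, 314, 317, 383 and 434 counts in IKKβ+/+ saline and 251.9, 278, 295, 328 and 364 in IKKβ+/+ Ang II mice. It had 288, 332, 342 and 355 counts in IKKβ-/- saline and 267, 295, 296, 341 and 365 in IKKβ-/- Ang II mice. The groups overlapped in every comparison. Of 13 related regulators (Tfe3, Mitf, the FoxO factors, Zkscan3, folliculin and its partners and the Rag GTPases), none passed in any of the 7 comparisons by limma or edgeR; in the 4 pairwise comparisons 4 results had an unadjusted p below 0.05 by limma, and DESeq2 called 1.

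Other genes of the pathway were read from lists beside the 37. Of 24 further genes of autophagosome formation and fusion, none passed for Ang II in either genotype by limma or edgeR; in IKKβ+/+ mice 3 had an unadjusted p below 0.05 by limma and DESeq2 called 3, and in IKKβ-/- mice both counts were 0. Under saline, Vamp8, a SNARE that fuses the autophagosome with the lysosome, rose in IKKβ-/- mice (0.38 ± 0.10, adjusted p = 0.0649), and Plekhm1, an adaptor of the same step, fell (-0.31 ± 0.10, adjusted p = 0.0973). Of 17 further receptors, Stbd1, a receptor for glycogen, rose with Ang II in IKKβ+/+ mice (0.71 ± 0.21) and was higher in IKKβ-/- than IKKβ+/+ mice under saline (0.92 ± 0.22), both against the same saline mice. Sec62, a receptor for endoplasmic reticulum, was also higher there (0.49 ± 0.12). Pink1, the kinase that marks damaged mitochondria, fell with Ang II in IKKβ+/+ mice (-0.43 ± 0.13) and averaged over both genotypes (-0.40 ± 0.09). Its mean in IKKβ-/- mice was 2725 with saline and 2120 with Ang II, which was not called on its own. Averaged over treatments, Pink1 was higher in IKKβ-/- mice (0.34 ± 0.09).

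Lysosomal genes, whose products degrade what autophagy delivers, were read as a list of 33 genes carrying TFEB-type elements. In IKKβ+/+ mice, 6 of the 33 fell with Ang II and 1 rose (beside 4.33% of all genes in each direction), with a list median of -0.16 against 0.01 over all genes. The 4 with the smallest p were the cathepsin Ctsf and the glycosidases Naglu, Gaa and Man2b1, and all 4 fell. Ctsf went from 980.3 ± 51.3 to 610.0 ± 160 normalized counts (SD, n = 5 each), a log2 change of -0.72 ± 0.18. Naglu went from 489 ± 27.9 to 370.1 ± 36.1, a change of -0.40 ± 0.10. The count of 7 was 2 without X2350 or X2358, 3 without X2373 or X2378 and 4 without X2376, and it was 0 with the striated muscle score as a covariate, where the calls over all genes went from 1286 to 201. Without those mice, in the order given, the calls over all genes were 431, 451, 843, 627 and 699.

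Under saline, 6 of the 33 were lower in IKKβ-/- than IKKβ+/+ mice (beside 2.07% of all genes) and none was higher, with a list median of -0.26 against -0.02 over all genes. Among them were Glb1 (-0.62 ± 0.16) and Man2b1 (-0.52 ± 0.16), enzymes that degrade glycans and glycolipids. Glb1 had 558 ± 8.96 counts in IKKβ+/+ and 367 ± 70.1 in IKKβ-/- saline mice. The count of 6 was 0 without X2406 and X2385, 0 or 1 without any 1 of the 9 saline mice except X2409, 2 without X2352, 9 without X2409 and 10 without X2380. Over all genes these fits called 19, 24 to 547, 622, 1727 and 1102, in that order, beside 812 in the main fit. For Ang II in IKKβ-/- mice limma, edgeR and DESeq2 each called 0 of the 33, and 0 had an unadjusted p below 0.05. The difference of the Ang II effect between genotypes was called for 0 by all 3 tools, and 5 of the 33 had an unadjusted p below 0.05.

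Markers of other cells moved beside the lysosome list. Summed counts of 7 macrophage markers, a cell type rich in lysosomes, were 7416 to 9894 in IKKβ+/+ saline and 4480 to 6574 in IKKβ-/- saline mice, which did not overlap, and Cd68 and Adgre1 of the 7 fell; none of the 7 was at 0 in every mouse. In IKKβ+/+ Ang II mice the sum was 5780 to 9144, and none of the 7 passed by limma, edgeR or DESeq2 or had an unadjusted p below 0.05 for Ang II. All 7 fibroblast markers were lower in estimate with Ang II in IKKβ+/+ mice (median -0.55, 1 called) and in IKKβ-/- than IKKβ+/+ saline mice (median -0.49, none called by limma, edgeR or DESeq2, 2 with an unadjusted p below 0.05). The 7 endothelial markers had medians of -0.62 (1 called) and -0.80 (none called by limma or edgeR, 2 by DESeq2, 3 with an unadjusted p below 0.05) in the same comparisons. Their summed counts were 20594 to 35657 in IKKβ+/+ saline, 11373 to 23003 in IKKβ+/+ Ang II and 12379 to 27305 in IKKβ-/- saline mice. None of these 14 markers was at 0 in every mouse. Of 13 circadian clock genes, 8 were higher and 3 lower in IKKβ-/- than IKKβ+/+ saline mice, and summed striated muscle markers were 207 to 339 in IKKβ+/+ saline, 458 to 906 in IKKβ+/+ Ang II and 397 to 607 in IKKβ-/- saline mice. Those ranges set IKKβ+/+ saline apart from the same groups as Gabarap did. With the clock gene score or the striated muscle score as a covariate, 0 of the 37 were called between genotypes under saline, where the calls over all genes went from 812 to 5 and to 0. The log2 difference of Map1lc3a was 0.46 and 0.47 in these fits, beside 0.43 without a covariate. With the striated muscle score Gabarap was not called for Ang II in IKKβ+/+ mice (0.29, adjusted p = 0.204). The striated muscle sums did not overlap between the groups compared, so a fit with that score cannot tell the score from the group. The clock sums were 7781 to 18339 in IKKβ+/+ saline and 17813 to 24561 in IKKβ-/- saline mice, with little overlap, which limits that fit in the same way. The part of these cells and rhythms in the results was not tested.

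**Figure D4:**
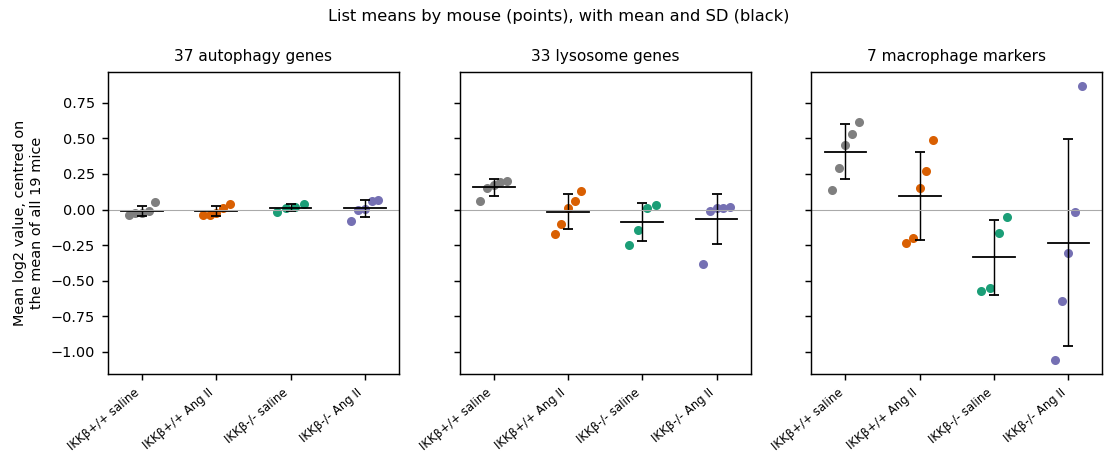
Mean log2 value of the 37 autophagy genes, 33 lysosome genes and 7 macrophage markers in each mouse, centred on the mean of all 19 mice, with group mean and SD in black. The autophagy genes stay between -0.08 and 0.07 in all 19 mice, the lysosome genes between -0.38 and 0.20 and the macrophage markers between -1.06 and 0.87.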

How the data were processed

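RNA from the suprarenal aorta of 19 mice was sequenced (poly(A) selection, stranded libraries, single reads). Per the labels and the methods, the authors used Trimmomatic 0.35 for trimming and STAR 2.7.1a for alignment to GRCm38, took read counts per gene from STAR (RSEM was also run, for TPM values not used here) and normalized the counts with DESeq2 1.30.1. The deposited values are therefore a normalized signal, gene counts divided by a size factor for each mouse. Dividing by the value of 1 read gave whole reads for 100% of values (within 0.01), and edgeR 4.0.16 and DESeq2 1.42.0 were run on those reads as alternatives. Depth was 11382573 to 19906694 reads per mouse. Which mice were handled together is not given in the sources used here.

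Groups followed the labels. The main test was limma 3.58.1 (R 4.3.3) on log2(normalized count + 1), 1 fit over all 4 groups with a mean-variance trend, and Benjamini-Hochberg adjustment over the 14845 genes that reached 10 normalized counts in 4 or more mice, with 5563 left out. A gene was called at an adjusted p below 0.1 and a fold above 1.2, and 7 comparisons were made: 4 between pairs of groups, the difference of the Ang II effect, and each factor averaged over the other. Every adjusted p in the text is from this fit unless another tool is named. A pseudocount of 1 hardly lowers fold changes at the levels of the 37 genes. Single genes were also tested with two-sided exact permutation tests. edgeR called 1373 and DESeq2 1887 of all genes for Ang II in IKKβ+/+ mice, where limma called 1286, and 835 and 1437 between genotypes under saline, where limma called 812. Lengths of exons and overlaps came from GENCODE M21 (GRCm38), an earlier release than that of the deposited table. No pair of libraries of a group agreed within sampling noise. The scripts were tested on simulated data.

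The members and the gene lists were chosen with earlier results of these data known. Named by mouse are genes called in any comparison, genes without overlap in a pairwise comparison and with an unadjusted p below 0.01 there, and Atg5, Ulk1, Becn1, Map1lc3b, Sqstm1, Bnip3 and Tfeb; Atg14 and Atg10, and genes named only with a fold change or range, were chosen with their values seen. Of each other list, up to 4 called genes with the smallest p are named; some genes are not reported here. The lists named were of autophagosome formation and fusion, receptors, lysosome, regulators and hypoxia, and markers of smooth muscle, endothelium, fibroblasts, macrophages, white and brown adipocytes, striated muscle, erythroid and neural cells, the clock and glucocorticoid targets. Alternatives were another pseudocount, no filter, other tools, scalings, thresholds and covariates, and each mouse left out; the mitochondrial share as a covariate, leaving out X2385 and X2406, and the counts of lysosome genes under each alternative were added after seeing the data.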

Additional observations from a re-analysis of the deposited data

Results flagged for a closer look

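In 11 of 148 sets (37 genes in 4 groups), 1 mouse lay far from the others of its group by Dixon's ratio; chance flags about 1 in 20 sets, here 7.4. The values are normalized counts. Mouse X2383 (IKKβ-/- Ang II) was highest for 3 genes, Atg4b (832, next 584), Ambra1 (578, next 440) and Uvrag (821, next 713). X2350 (IKKβ+/+ Ang II) was highest for Gabarap (4894, next 4080) and for Atg16l1 (592, next 500). X2356 of the same group was highest for Bnip3 (440, next 275) and lowest for Atg5 (403, next 449). In IKKβ-/- saline mice, X2403 was lowest for Ulk2 (1071, next 1375) and X2409 for Becn1 (1106, next 1278). X2386 (IKKβ-/- Ang II) was lowest for Map1lc3a (856, next 1129), and X2373 (IKKβ+/+ saline) for Atg101 (132, next 171). Of these, Gabarap and Map1lc3a were called in a comparison; the call of Gabarap for Ang II was lost without X2350.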

How the results depend on the processing

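The medians of the 37 genes stayed between -0.07 and 0.05 on the log2 scale in all 7 comparisons and under every alternative; with the striated muscle score as a covariate they moved by more than the spread between mice for Ang II in IKKβ-/- mice (-0.039) and for the difference of the Ang II effect (-0.069). The counts of genes called were small and moved more. For Ang II in IKKβ+/+ mice the count of 1 became 2 with only the groups compared, with edgeR and with the mitochondrial share as a covariate, 3 with array quality weights and with DESeq2, and 0 at a fold above 1.5 and with the striated muscle score. Over all genes these called 1904, 1373 and 1794, then 2074 and 1887, then 752 and 201, beside 1286 in the main fit. For genotypes under saline the count of 4 became 2 without the filter and 0 at an adjusted p below 0.05, at a fold above 1.5, with each of the white adipocyte, clock, striated muscle and mitochondrial covariates, and without X2385 and X2406. Over all genes the calls went from 812 to 644 without the filter and to between 0 and 504 in the others. For genotypes averaged over treatments the count of 3 became 1 with TMM scaling, 5 with DESeq2, 6 with the white adipocyte score, and 0 at both stricter thresholds, with the striated muscle and mitochondrial covariates, and without X2385 and X2406. Over all genes the first 3 of these called 1083, 1571 and 1465 and the rest 21 to 408, beside 1075 in the main fit. Averaged over genotypes, Ang II gave 2 with array quality weights and 1 with the mitochondrial share, in place of 0, and genotypes under Ang II gave 1 with DESeq2, in place of 0. Over all genes these called 2133 and 2314, beside 1887, and 521, beside 19. The difference of the Ang II effect gave 0 throughout, where up to 279 of all genes were called (by DESeq2). Apart from fewer samples or a stricter threshold, the cause was not tested.

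With 1 mouse left out, the count ranged from 0 to 3 for Ang II in IKKβ+/+ mice, 0 to 1 in IKKβ-/- mice and averaged over genotypes, 0 to 5 for genotypes under saline, 0 to 2 under Ang II and 1 to 5 averaged over treatments. Over all genes the calls ranged from 431 to 1918, 433 to 1082, 1542 to 2145, 24 to 1727, 0 to 553 and 355 to 1898, in that order. Gabarap, Map1lc3a, Rb1cc1 and Atg9a kept their direction under all alternatives in the comparisons where they were called. Between genotypes under saline, Gabarap kept its call in 12, Map1lc3a in 13, Rb1cc1 in 6 and Atg9a in 5 of the 19 fits without 1 mouse. The counts of lysosome genes ranged from 2 to 9 for Ang II in IKKβ+/+ mice, lowest without X2350 or X2358, and from 0 to 10 between genotypes under saline, where it was 0 without X2370, X2373, X2403 or X2406. No paired analysis was possible because no mouse number was shared between groups. With 4 or 5 mice a group, the median SE of a log2 difference between 2 groups was 0.12 to 0.13. A call also needed a fold above 1.2, so smaller changes could not be called at any SE. The mean of Becn1 went from 1113 to 1292.5 normalized counts with Ang II in IKKβ+/+ mice, without overlap, and did not pass. A gene that was not called was therefore not shown to be unchanged.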

Other observations

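Marker lists not described above also differed between groups. Of 8 smooth muscle genes, 3 rose with Ang II in IKKβ+/+ mice, Actg2 (1.11 ± 0.23 on the log2 scale, SE), Cnn1 (0.82 ± 0.20) and Tagln (0.66 ± 0.20). In IKKβ-/- mice limma, edgeR and DESeq2 called 0 of the 8, and 0 had an unadjusted p below 0.05. The 8 glucocorticoid targets had a median of 1.01 for Ang II in IKKβ+/+ mice, where Errfi1, Cdkn1a, Sgk1 and Fkbp5 rose, and of -0.15 in IKKβ-/- mice, where Per1, which is also a clock gene, fell. All 7 white adipocyte markers tested rose with Ang II in IKKβ-/- aortas (median 4.46), where 2.59% of all genes were called higher. Summed counts of the list there were 1122 to 4613 with saline and 3195 to 41972 with Ang II, highest in X2384 and X2385. For Ang II in IKKβ+/+ mice, 0 of the 7 passed by limma, edgeR or DESeq2 or had an unadjusted p below 0.05. The IKKβ+/+ sums were 1031 to 14907 with saline and 3255 to 9254 with Ang II. Between genotypes under Ang II, limma, edgeR and DESeq2 called 0 of the 7, and 0 had an unadjusted p below 0.05. Between genotypes under saline, where limma called 5.47% of all genes, all 7 were lower in estimate in IKKβ-/- mice (median -2.36). Of them limma and edgeR called 1 and DESeq2 6, and 6 had an unadjusted p below 0.05 by limma. There 7 of 8 smooth muscle genes and 7 of 8 glucocorticoid targets were higher in estimate (medians 0.29 and 0.58). Of these limma called Actg2, Klf9 and Per1 as higher. The difference of the Ang II effect between genotypes was called by limma and edgeR for none of the smooth muscle, glucocorticoid or adipocyte genes, though 4 of 8, 5 of 8 and 7 of 7 had an unadjusted p below 0.05 and DESeq2 called 3, 3 and 6.

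Of 7 endothelial markers, Tek fell with Ang II in IKKβ+/+ mice (-1.08 ± 0.27) and Kdr rose in IKKβ-/- mice (1.79 ± 0.57), where 5 of the 7 were lower in estimate and the list median was -0.25. Of 7 fibroblast markers, Lum fell in IKKβ+/+ mice (-1.27 ± 0.40). Of 6 neural markers tested, Uchl1 rose in IKKβ+/+ mice (0.86 ± 0.22) and Sox10 in IKKβ-/- mice (1.74 ± 0.55). In the 4 pairwise comparisons limma and edgeR called 0 results for 4 brown adipocyte markers, where 2 had an unadjusted p below 0.05 and DESeq2 called 1, and all 3 tools called 0 for 5 erythroid markers, where 0 had an unadjusted p below 0.05.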
